A study of Mus musculus with 12 samples.

Results

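The interaction of PD-L1 and Lag3 blockade was measured gene by gene in responder CD4+ T cells as the amount by which the combination (CB) departed from the sum of the 2 single antibody effects. On the log2 scale this is CB minus anti-PD-L1 minus anti-Lag3 plus isotype. A value of 0 means that the fold change in CB is the product of the 2 single fold changes, a value above 0 that CB lies above this product, and a value below 0 that it lies below. A gene entered if its reads over the 12 samples came to 30 or more, which held for 15138 of the 56691 mouse genes in the count table, and all 12 samples were used.

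The cells came from Tg4 Nr4a3-Tocky mice that also carried an Il10 GFP reporter. Tg4 mice express a transgenic T cell receptor (TCR) for a myelin basic protein peptide, and in Tocky mice Nr4a3, a gene switched on by TCR signals through NFAT, drives a Timer protein that matures from a blue to a red form. Every mouse, controls included, received 4 mg/kg of the [4Y]-MBP peptide under the skin, then antibody by the intraperitoneal route 24 h later, then 0.4 mg/kg of peptide after a further 30 min, and spleens were taken 12 h after that. The 4 groups of 3 mice were set apart by the antibody. The isotype group received a pool of rat IgG1 and rat IgG2a, the anti-PD-L1 group clone MIH5, the anti-Lag3 group clone C9B7W, and the CB group both clones pooled in equal parts. The dose was 0.5 mg, and whether this was the total in CB is not given in the sources used here. Nr4a3-Timer Blue+Red+ cells, called responders, were sorted before 3′ mRNA sequencing, in batches of 4 in which each group carried its own CD4 stain, so the stain and the treatment cannot be told apart. The sources used here do not say which replicate number belonged to which sort batch. Each value describes cells that had already passed a gate on TCR signalling, and the number of responders per mouse is not part of it. All comparisons are within TCR transgenic mice that share 1 specificity.

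PD-L1 is the ligand of PD-1, an inhibitory receptor of activated T cells that recruits phosphatases towards the TCR and CD28. Lag3 is an inhibitory receptor that binds MHC class II and acts close to the TCR and its co-receptor. Both are raised on CD4+ T cells after antigen, and the question addressed by the 4 groups is whether blocking both does more than the 2 single blockades together.

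Between 16449370 and 22151025 reads per sample fell on mouse genes. The CD4 T cell markers Cd3d, Cd3e, Cd3g, Cd4, Trac, Trbc2, Cd28, Cd5 and Lck were present in all samples. Levels are given in CPM, the reads of a gene scaled to the size of its library. These markers summed to 3980 to 4140 CPM with isotype, 3780 to 4190 with anti-PD-L1 and 3910 to 3940 with anti-Lag3. In CB the sum was lower, at 3590 to 3620 CPM, and did not overlap the other groups. All 9 B cell markers had reads and summed to 330 to 438 CPM, of which Ighm made up group means of 344.5 to 387.7 CPM and the other 8 at most 6.99 CPM each. The sum was 40.9 to 45.3 CPM for both CD8 T cell markers with isotype, 24.6 to 30.5 with anti-PD-L1, 29.2 to 46.4 with anti-Lag3 and 25 to 33.2 in CB, and 25.3 to 59.4 CPM over all samples for 6 NK cell markers. For 8 of 9 myeloid markers, with Csf3r at 0, it was 15.5 to 17.5 CPM with anti-PD-L1. In the other groups it was 8.47 to 13.4 with isotype, 8.71 to 13.4 with anti-Lag3 and 6.35 to 13.1 in CB. The sum was at most 3.31 CPM for 4 of 5 platelet markers with Gp1bb at 0. All 7 erythroid markers had reads, and their sum was 245 to 452 CPM with isotype, 218 to 291 with anti-Lag3, 172 to 218 with anti-PD-L1 and 152 to 200 in CB. Reads of Y-linked genes marked 5 libraries, the 4 numbered 1 and isotype sample 2, in which Ddx3y stood at 56.0 to 81.6 CPM. Isotype therefore held 2 such libraries and each other group 1. Isotype sample 2 also held Xist at 11.3 CPM, against 237 to 491 CPM in the other 7 libraries, which held at most 19 reads of Ddx3y. The values of Mt1, Mt2, Ms4a4b, S100a6 and Ddx18 are given below with and without these 5 libraries. The part of these differences in the interaction values was not tested, except where such a value is given.

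No gene passed an adjusted p of 0.05 in the interaction by edgeR's quasi-likelihood test, with 0 genes above 0 (0% of those tested) and 0 below 0 (0%), and the smallest adjusted p was 0.14. At an unadjusted p under 0.05 there were 470 genes above 0 (3.1%) and 428 below 0 (2.83%), or 5.93% of all genes tested, and the share was 4.27% among the 10448 genes whose mean count reached 30. With the replicate number of the samples added as a block, 0 genes above 0 (0%) and 4 genes below 0 (0.0264%) passed, and 625 passed an unadjusted p of 0.05. The 4 genes were S100a6, Mt1, Ms4a4b and Mt2. Each library is a bulk of sorted cells, so fewer cells with a transcript and less of it per cell cannot be told apart. Without the block CB against isotype called 353 genes higher (2.33%) and 296 lower (1.96%), anti-PD-L1 against isotype 5 higher and 0 lower, and anti-Lag3 against isotype 0 in either direction, with 788 genes at an unadjusted p under 0.05 for anti-Lag3. With the block the counts were 450 and 393 for CB, 13 and 10 for anti-PD-L1 and 7 and 2 for anti-Lag3. All these contrasts share the isotype samples. Other tools gave different counts for the interaction without a block. DESeq2 called 6 genes above and 12 below 0, limma-voom 0 in either direction, and limma on the rlog values of the deposited transformed table called only Mt1. With the block DESeq2 called 131 genes above and 122 below 0, of which 196 had a group with at most 3 reads in every sample.

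The interaction combines 4 group means and is less precise than a comparison of 2 groups. Its median standard error was 0.379 on the log2 scale, against 0.268 for CB against isotype. The half-width of the 95% interval had a median of 0.312 among genes whose mean count reached 3000, 0.44 from 1000 to 3000, 0.712 from 300 to 1000, 1.23 from 100 to 300 and 2.79 from 30 to 100. An estimated departure from additivity of 2.35-fold or less thus had an interval that included 0 in a typical gene with 100 to 300 reads per sample. In the plot of interaction against mean count the spread of all genes narrowed with depth, and the 4 genes called with the block stood below 0.

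**Figure D1:**
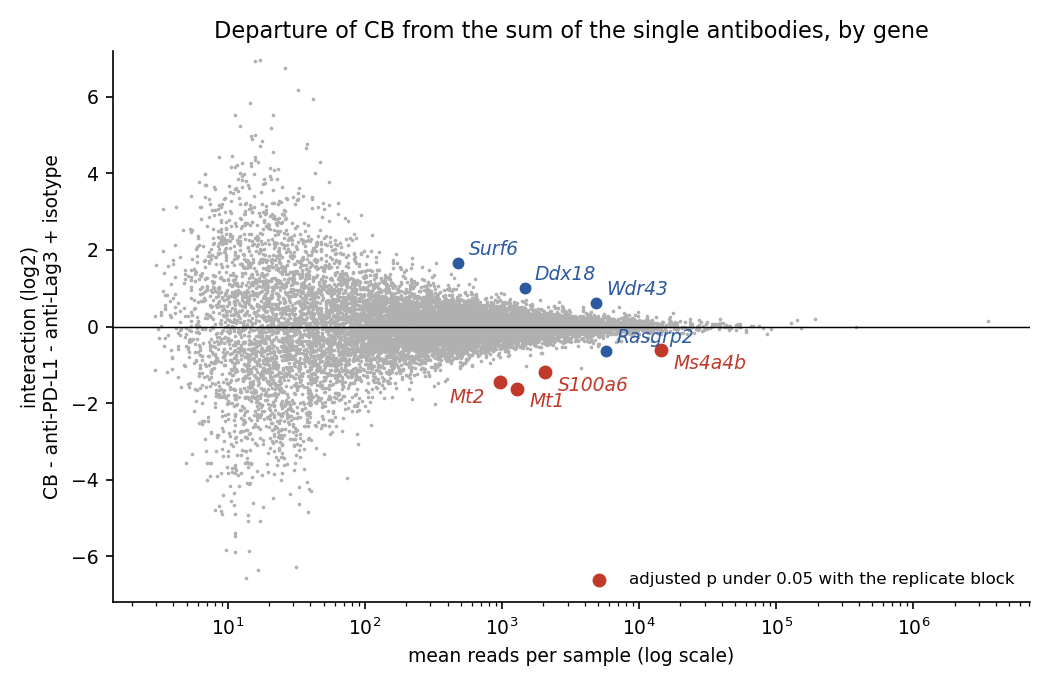
Interaction (log2, CB minus anti-PD-L1 minus anti-Lag3 plus isotype, vertical axis) of each gene without a group at the floor of 3 reads, against its mean reads per sample (horizontal log axis). Genes called with the replicate block are marked in red, and Ddx18, Wdr43, Surf6 and Rasgrp2 in blue. The cloud is centred near 0, its median being -0.000783, and narrows to the right, and Mt1, Mt2, S100a6 and Ms4a4b lie below it.

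Of the 4 genes called with the block, 2 encode metallothioneins, small cysteine-rich proteins that bind zinc and copper and whose genes are induced by metals through the factor MTF1. Both Mt1 and Mt2 were called higher with anti-PD-L1 than with isotype, their means with anti-Lag3 were also above isotype, which passed only for Mt2 and only with the block (adjusted p = 0.0396), and their means in CB were below those with anti-PD-L1 alone. The 2 genes are neighbours on chromosome 8 (GRCm38, Mt1 at chr8:94179082-94180327 and Mt2 at chr8:94172664-94173568, both on the plus strand). Their promoters are shown because both genes share this pattern and both carry several copies of the core of the metal response element, the site MTF1 binds, printed here in capitals. The sequences run from 250 bases before to 50 bases after the start site in RefSeq (GRCm38.p6), Mt1 at chr8:94178839-94179138 and Mt2 at chr8:94172368-94172667, both plus strand.
Mt1: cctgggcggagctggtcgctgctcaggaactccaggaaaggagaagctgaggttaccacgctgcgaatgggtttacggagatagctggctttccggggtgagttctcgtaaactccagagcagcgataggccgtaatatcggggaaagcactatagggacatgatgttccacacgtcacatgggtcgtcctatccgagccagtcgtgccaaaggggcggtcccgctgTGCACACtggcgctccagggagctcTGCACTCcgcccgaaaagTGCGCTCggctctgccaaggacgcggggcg
Mt2: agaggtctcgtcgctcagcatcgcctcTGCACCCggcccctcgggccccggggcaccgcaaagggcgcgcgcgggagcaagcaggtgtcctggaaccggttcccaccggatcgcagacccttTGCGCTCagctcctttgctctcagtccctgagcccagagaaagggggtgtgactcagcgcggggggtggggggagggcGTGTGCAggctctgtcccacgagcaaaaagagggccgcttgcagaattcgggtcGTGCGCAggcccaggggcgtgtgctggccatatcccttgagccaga
The search used TGCACNC and TGCGCNC on both strands. Mt1 held 3 matches, all forward, and Mt2 held 4, of which 2 were on the reverse strand and read GTGTGCA and GTGCGCA in the printed strand. Of 32851 promoters of this length, 25.7% held at least 1 match, 1.97% at least 3 and 0.517% at least 4. The promoters of Ms4a4b and S100a6 held 0. A match describes the letters in this window and does not show that a factor was bound.

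Mt1 stood at 40.5, 27.3 and 58.3 CPM in the isotype samples 1 to 3, at 87.4, 107 and 80.4 CPM with anti-PD-L1, at 85.9, 68.7 and 72.8 CPM with anti-Lag3 and at 40.1, 65.5 and 55.6 CPM in CB. All 6 samples of the single antibodies were above all 6 samples of isotype and CB, and the isotype and CB samples overlapped. The mean was 42.0 ± 15.6 CPM in isotype, 91.7 ± 14 with anti-PD-L1, 75.8 ± 8.99 with anti-Lag3 and 53.7 ± 12.8 in CB (SD, n = 3 each). Had the single changes multiplied, CB would have been at 165.6 CPM, and had they added in CPM, at 125.5 CPM. The interaction was -1.62 on the log2 scale (SE 0.30, 95% interval -2.23 to -1.01, edgeR adjusted p = 0.14) and -1.65 with the block (SE 0.27, adjusted p = 0.00145). Among the 4 samples numbered 1 it was -2.21, among those numbered 2 -2.04 and among those numbered 3 -0.85. Of its components, anti-PD-L1 against isotype was called higher at 1.12 (SE 0.21, adjusted p = 0.0404), while anti-Lag3 at 0.85 (adjusted p = 0.554) and CB at 0.35 (adjusted p = 0.424) did not pass.

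Mt2 stood at 21.1, 15.4 and 39.6 CPM in isotype, at 70.6, 74.5 and 71.8 CPM with anti-PD-L1, at 52.6, 46.7 and 46.6 CPM with anti-Lag3 and at 40.3, 54.8 and 56.8 CPM in CB. All samples of the 3 antibody groups were above all isotype samples, CB overlapped anti-Lag3, and anti-PD-L1 stood above both. The interaction was -1.45 (SE 0.32, 95% interval -2.12 to -0.78, adjusted p = 0.474) and -1.52 with the block (SE 0.29, adjusted p = 0.0158). Mt2 was called higher in CB than in isotype, at 0.99 (SE 0.23, adjusted p = 0.00975), and with anti-PD-L1 it was called at 1.51 (SE 0.23, adjusted p = 0.00575). The multiplied single changes would have put CB at 138.4 CPM, and its mean was 50.6 ± 8.98 CPM (SD, n = 3).

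The value of Mt2 depended more on single samples than that of Mt1. With the block and each sample left out in turn, Mt1 was called in 12 of 12 fits with values from -1.95 to -1.36, and Mt2 in 6 of 12 with values from -1.91 to -1.24. The fit without the 5 libraries with Y-linked reads had no block and 7 samples, with isotype sample 3 as the only isotype sample. Mt1 was there at -0.91 and Mt2 at -0.63, against -1.62 and -1.45 without the block in all 12 samples, where neither was called. Without isotype sample 2 alone, also with no block, Mt1 was at -1.39 and Mt2 at -1.19. The lowest isotype value of both genes was in that sample. Mt1 and Mt2 are paralogues, and how reads matching both were counted is not given in the sources used here.

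Ms4a4b and S100a6 departed in another way, with small changes under each single antibody and a larger one in CB. Ms4a4b encodes a 4-pass membrane protein of T cells (chr19:11443553-11467055), and S100a6 a small calcium-binding protein of the S100 family (chr3:90612882-90624181). Ms4a4b stood at 851, 978 and 952 CPM in isotype, at 755, 714 and 820 CPM with anti-PD-L1, at 804, 825 and 926 CPM with anti-Lag3 and at 452, 464 and 467 CPM in CB. The 3 CB samples were below all others by a wide margin, anti-PD-L1 lay below isotype, and anti-Lag3 overlapped both. The interaction was -0.60 (SE 0.12, 95% interval -0.85 to -0.36, adjusted p = 0.187) and -0.60 with the block (adjusted p = 0.00989). CB against isotype was called at -1.01 (SE 0.09, adjusted p = 7.74e-08), while anti-PD-L1 at -0.28 (adjusted p = 0.337) and anti-Lag3 at -0.12 (adjusted p = 0.861) did not pass. The mean in CB was 460.8 CPM, against 700.9 CPM for the multiplied single changes. The values among the samples numbered 1, 2 and 3 were -0.66, -0.38 and -0.77. In the fit without the block and without the libraries with Y-linked reads, the value was -0.60.

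S100a6 stood at 83.3, 110 and 151 CPM in isotype, at 86.1, 139 and 118 CPM with anti-PD-L1, at 115, 130 and 172 CPM with anti-Lag3 and at 47.6, 67.2 and 67.4 CPM in CB. The 3 CB samples were below the other 9, which overlapped, and in each of the 4 groups the sample numbered 1 was the lowest. The interaction was -1.19 without the block (SE 0.27, adjusted p = 0.474) and -1.20 with it (SE 0.20, adjusted p = 0.00145). The values among the samples of the 3 numbers were -1.32, -1.28 and -0.99. CB against isotype was called at -0.92 (SE 0.20, adjusted p = 0.00473), and anti-PD-L1 and anti-Lag3 stood at -0.01 and 0.27. In the fit without the block and without the libraries with Y-linked reads, S100a6 was at -0.93. With the block, S100a6 was called in 12 of 12 fits that left out 1 sample (-1.33 to -1.05) and Ms4a4b in 8 of 12 (-0.66 to -0.56).

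**Figure D2:**
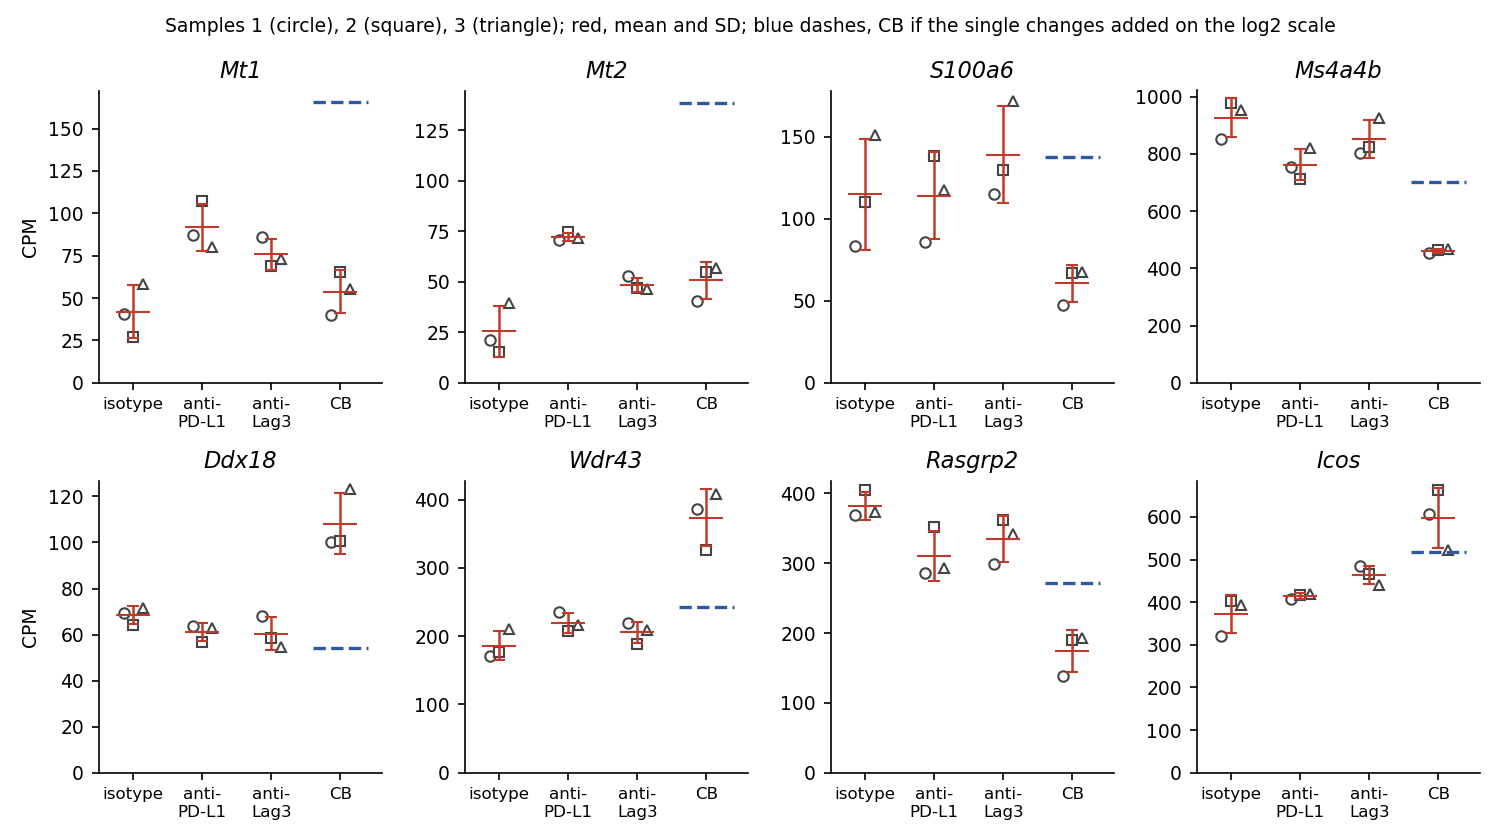
CPM of 8 genes (vertical axes) in the 12 samples by group, circles, squares and triangles being samples 1, 2 and 3, with the mean ± SD in red and, as a blue dash, the CB level if the 2 single changes multiplied. For Mt1 the dash lies at 165.6 CPM and the CB mean at 53.7 CPM, and for Ddx18 the dash lies at 54.0 CPM and the CB mean at 108.1 CPM.

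Above 0, the gene of smallest p was Ddx18, an RNA helicase of the DEAD-box family that takes part in making the large ribosomal subunit (chr1:121553835-121567989). It stood at 69.2, 64.0 and 71.8 CPM in isotype, at 63.6, 56.7 and 63.0 CPM with anti-PD-L1, at 68.1, 58.7 and 54.5 CPM with anti-Lag3 and at 100, 100 and 123 CPM in CB. The CB samples were above the other 9, which overlapped. The interaction was 1.00 (SE 0.20, 95% interval 0.59 to 1.42, edgeR adjusted p = 0.187) and did not pass in edgeR with the block (adjusted p = 0.0702). DESeq2 called it with the block and without. The departure came to a CB level 2-fold that of the multiplied single changes, and CB against isotype was called at 0.66 (SE 0.14, adjusted p = 0.00541). In the fit without the block and without the libraries with Y-linked reads, the interaction of Ddx18 was 1.25.

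Of 60 ribosome biogenesis factors, the nucleolar proteins that make and assemble ribosomal subunits, 49 had an interaction above 0 and 11 below, with a median of 0.23. Over all genes tested 50.2% were above 0 and the median was 0.00162. At an unadjusted p under 0.05 there were 12 above 0 (20%, against 3.1% of all genes) and 1 below, and none passed the adjusted threshold in the edgeR fit. Members that DESeq2 with the block called included Ddx18, Wdr43, Nop58, Gtpbp4 and Dkc1. In CB against isotype 41 of the 60 were called higher (2.33% of all genes) and 0 lower. The list holds Gnl3 and Wdr43, which the study names from these samples, so its direction is not independent of that choice.

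Wdr43, a part of the small-subunit processome (chr17:71615895-71659031), stood at 170, 177 and 210 CPM in isotype, at 236, 207 and 216 CPM with anti-PD-L1, at 219, 189 and 208 CPM with anti-Lag3 and at 386, 327 and 408 CPM in CB. The single-antibody samples overlapped isotype and CB was above all 9. Its interaction was 0.62 (SE 0.16, adjusted p = 0.752), and the CB mean of 373.4 CPM compares with 243 CPM for the multiplied single changes. Gnl3, a nucleolar GTPase also called nucleostemin, rose in CB at 1.38 (SE 0.17, adjusted p = 1.67e-05), and its interaction was 0.65 (95% interval 0.15 to 1.15, adjusted p = 0.803). Gnl3 overlaps Pbrm1 on the opposite strand (17296 and 64897 reads), and whether reads were counted by strand is not given. Further members above 0 at an unadjusted p under 0.05 were the assembly GTPase Gtpbp4 at 0.53, the box C/D snoRNP protein Nop58 at 0.37, Utp4 at 0.61, Bms1 at 0.40, Rrp9 at 0.75, Ddx10 at 0.51, Nop2 at 0.47, Imp4 at 0.40 and the pseudouridine synthase Dkc1 at 0.36. Bysl was the member below, at -0.59.

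Among the other genes of smallest p above 0, Surf6, a nucleolar protein (chr2:26888628-26902879), had an interaction of 1.65 (SE 0.40, adjusted p = 0.573). Riok1, a kinase of small-subunit maturation, was at 0.70 (SE 0.19). A smaller p than that of Riok1 was also found for Cenpn at 1.25 (SE 0.31), Fyttd1 at 1.65 (SE 0.41) and Kctd5 at 1.37 (SE 0.36). None of these is on the ribosome biogenesis list, and none passed in edgeR with all 12 samples and the filter of 30 reads. DESeq2 with the block called all of them. Srm, the spermidine synthase (chr4:148591503-148594993), entered through another list and was at 1.05 (SE 0.29, adjusted p = 0.752). The values of Surf6 and Srm were uneven between sample numbers. Surf6 was at 2.51, 0.28 and 2.2 and Srm at 1.15, 0.05 and 2.02 among the samples numbered 1, 2 and 3. With the samples numbered 2 left out, both passed (in a fit of 8 samples that called 5 genes). Of 36 translation initiation factors 28 were above 0, with a median of 0.0771 and 3 at an unadjusted p under 0.05, namely Eif5 at 0.52, Eif3a at 0.35 and Eif2b1 at 0.52. Of 22 genes of RNA polymerase I and the MYC network, a list that holds Srm, 10 were above and 12 below 0, the median was -0.0295 and Srm and Polr1c were the only 2 at an unadjusted p under 0.05.

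On the other side, 27 of 29 cytoskeleton, annexin, S100 and MS4A genes had an interaction below 0, with a median of -0.23, and 7 of them had an unadjusted p under 0.05 (24.1%, against 2.83% of all genes). In CB against isotype 23 of the 29 were called lower (1.96% of all genes) and 0 higher. The list joins several families, holds Ms4a4b and S100a6 and was chosen with earlier results of these data known. Its shares and direction are therefore not independent of that choice. After Ms4a4b and S100a6 came Anxa2, a calcium-dependent membrane-binding annexin. It stood at 95.1, 112 and 108 CPM in isotype, at 80.7, 103 and 71.1 CPM with anti-PD-L1, at 91.0, 87.7 and 113 CPM with anti-Lag3 and at 39.8, 51.2 and 49.6 CPM in CB. The CB samples lay below the other 9, and the interaction was -0.75 (SE 0.22, adjusted p = 0.803). Lgals9, the galectin that binds Tim-3, was nearly level in the first 3 groups at means of 155.8, 155.0 and 154.9 CPM and stood at 106.0 CPM in CB, with an interaction of -0.54 (SE 0.16, adjusted p = 0.803). The other 3 were Ms4a4c at -1.01, the intermediate filament protein Vim at -0.38 and S100a10 at -0.37.

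Rasgrp2, the exchange factor that activates Rap1 and through it integrins (chr19:6399340-6415216), stood at 368, 405 and 373 CPM in isotype, at 286, 351 and 294 CPM with anti-PD-L1, at 298, 362 and 342 CPM with anti-Lag3 and at 139, 190 and 193 CPM in CB. The single-antibody samples lay just below isotype and CB lay far below both. The interaction was -0.64 (SE 0.17, edgeR adjusted p = 0.752). With the block it did not pass in edgeR (adjusted p = 0.09) and was called in DESeq2. The CB mean of 173.8 CPM compares with 271.6 CPM for the multiplied single changes. Of 21 genes of the TCR complex and its proximal signalling 13 were below 0, with a median of -0.0719, and Rasgrp2 and the adaptor Grap2 at -0.47 were the 2 with an unadjusted p under 0.05. Of 22 egress, homing and integrin genes 21 were tested, 18 were below 0 and the median was -0.17. Itgb7, the integrin chain of gut-homing T cells, was at -0.40 (SE 0.16, adjusted p = 0.803). S1pr1, the receptor that T cells follow out of lymphoid tissue, was called lower in CB at -1.41 (adjusted p = 1.03e-05) but its interaction was -0.26 with a 95% interval from -0.75 to 0.22. Itga4 and Itga6 were likewise called lower in CB, at -0.89 and -0.90, with interactions of -0.08 and -0.35.

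Interferon-stimulated genes also lay mostly below 0. Of 43 tested, 32 had a negative interaction and the median was -0.24, and 4 had an unadjusted p under 0.05 below 0 (9.3%, against 2.83% of all genes). Rtp4, a chaperone of receptor transport and an interferon target, stood at 14.9, 13.2 and 13 CPM in isotype, at 23.3, 23 and 26.8 CPM with anti-PD-L1, at 24.6, 30.1 and 18.8 CPM with anti-Lag3 and at 10.9, 16.2 and 21.4 CPM in CB. All single-antibody samples were above isotype, and CB ranged from below isotype into the range of anti-Lag3. Its interaction was -1.43 (SE 0.39, adjusted p = 0.752). Ifit1, an RNA-binding antiviral protein, had a mean of 10.4 CPM in isotype, 19.9 with anti-PD-L1, 23.6 with anti-Lag3 and 16.4 in CB and an interaction of -1.46 (SE 0.43, adjusted p = 0.803). Ly6a, the surface antigen Sca-1, was called higher with anti-PD-L1 at 0.53 (adjusted p = 0.0142) and in CB at 0.50 (adjusted p = 0.00105), with 0.27 for anti-Lag3 (adjusted p = 0.805), and its interaction was -0.30 (SE 0.13). Tgtp2 was above 0 but all samples of a group held at most 3 reads, and no interaction value is given for any of the 2714 genes with such a group.

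**Figure D3:**
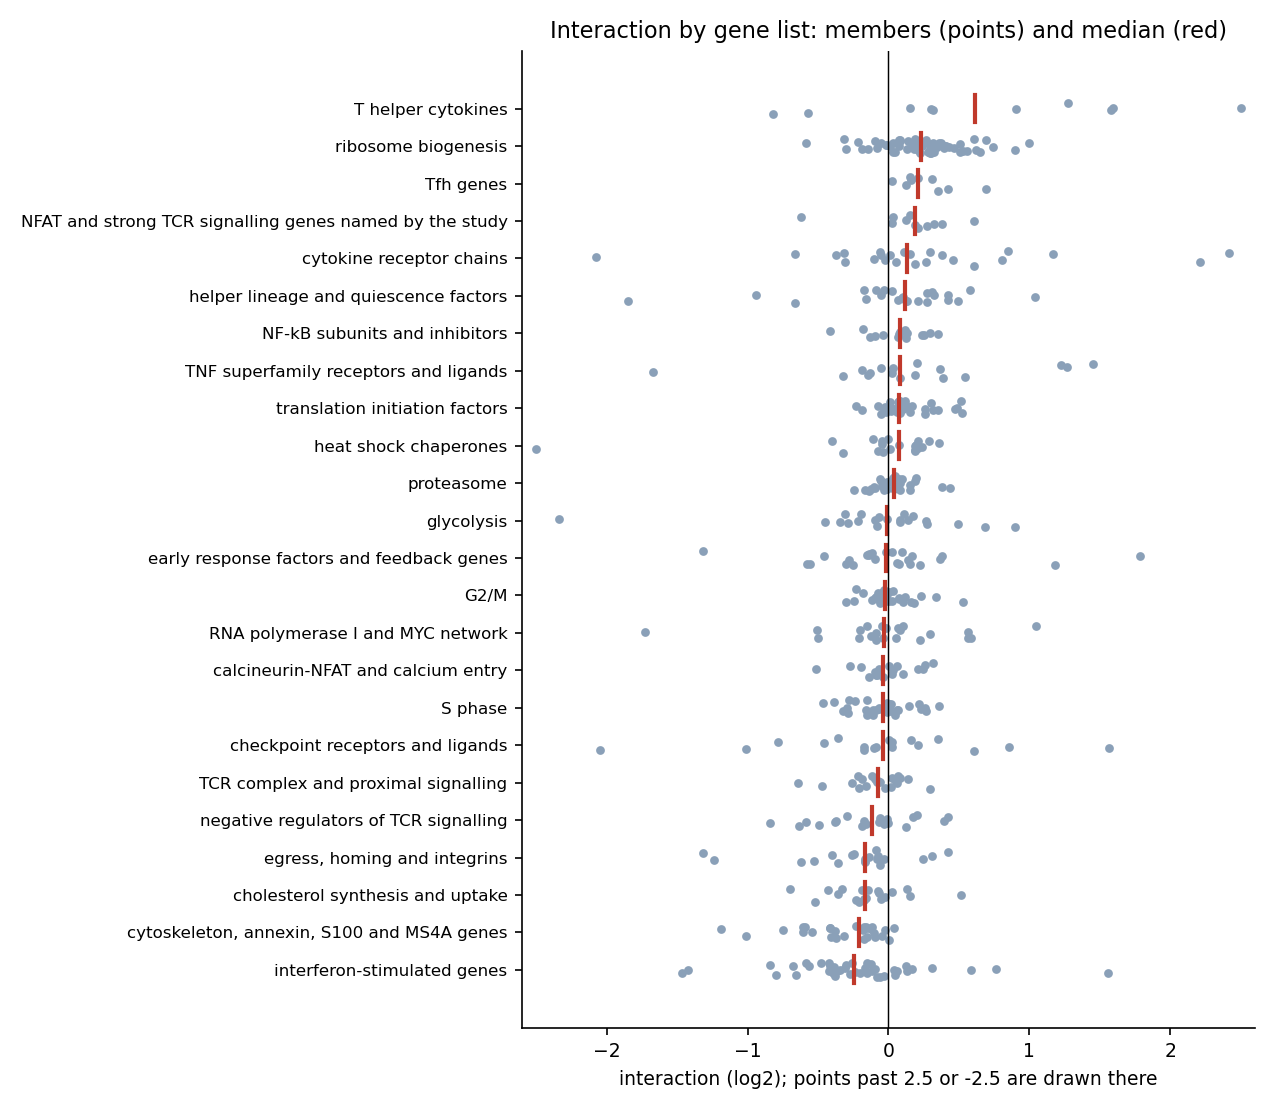
Interaction (log2, horizontal axis) of the members of the 24 gene lists, a point for each gene and a red mark for the median, without genes that have a group at the floor and with points beyond the axis drawn at its edge. The median of the ribosome biogenesis list lies at 0.23 with 49 of 60 members to the right of 0, and that of the cytoskeleton, annexin, S100 and MS4A list at -0.21.

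Of the genes of NFAT and strong TCR signalling that the study names from these samples, none had an interval that excluded 0. Of these 11 genes 10 were above 0, with a median of 0.19 and values from -0.62 (Ccr6) to 0.61 (Lag3), 0 had an unadjusted p under 0.05, and 9 were called higher in CB against isotype (2.33% of all genes). The study chose them on these samples for their change in CB. Icos, the co-stimulatory receptor of the CD28 family, stood at 320, 402 and 394 CPM in isotype, at 408, 417 and 419 CPM with anti-PD-L1, at 484, 466 and 441 CPM with anti-Lag3 and at 606, 663 and 522 CPM in CB. The 4 groups stepped upwards without overlap. The CB mean of 597 CPM compares with 517 CPM for the multiplied single changes. On the linear scale CB lay 90.6 CPM above additivity (SE 50.2). CB against isotype was called at 0.68 (SE 0.10, adjusted p = 0.000115), and the interaction was 0.21 with a 95% interval from -0.08 to 0.50.

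Tnfrsf4, which encodes the co-stimulatory receptor OX40, had a mean of 67.9 CPM in isotype, 91.6 with anti-PD-L1, 95.1 with anti-Lag3 and 131 in CB and an interaction of 0.03 with an interval from -0.40 to 0.46. Tnfrsf9, which encodes the co-stimulatory receptor 4-1BB, was at 0.19 (-0.34 to 0.71), Irf8 at 0.32 (-0.13 to 0.78), Irf4 at 0.27 (-0.27 to 0.81) and Maf, a factor of follicular helper T cells, at 0.13 (-0.26 to 0.52). For these genes the departures within the interval, 0 among them, were compatible with the data of 3 mice per group. Il21, the cytokine of follicular helper T cells, and Ccr6, a chemokine receptor, rose most in CB among the 11 genes, at 2.16 (SE 0.42) and 3.62 (SE 0.45), and their intervals were wide. Il21 stood at 5.49, 3.55 and 15.1 CPM in isotype and at 35.4, 38.5 and 34.2 CPM in CB, and its interaction was 0.15 (-1.01 to 1.31). Ccr6 stood at 1.01, 2.22 and 5.45 CPM in isotype, at 18.5, 26.8 and 26.5 CPM with anti-PD-L1, at 6.78, 10 and 3.1 CPM with anti-Lag3 and at 30.3, 39.1 and 37.8 CPM in CB. Its interaction was -0.62 (-1.82 to 0.58) on the log2 scale but 8.04 CPM above additivity on the linear scale (SE 4.53), so its sign depended on the scale. Il2ra, the IL-2 receptor alpha chain, was at 0.38 (-0.39 to 1.16).

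**Figure D4:**
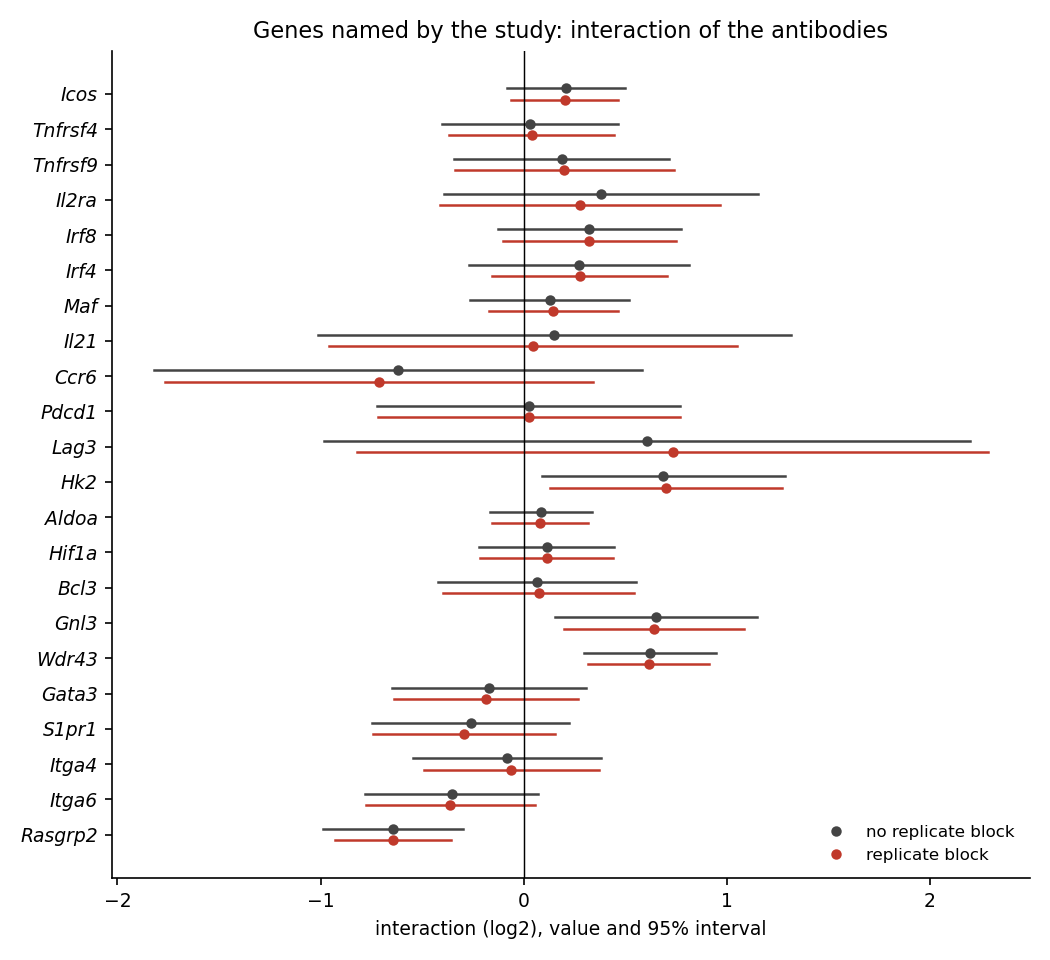
Interaction (log2, horizontal axis) with its 95% interval for the genes the study names, without the replicate number as a block and with it. The intervals of Icos, Tnfrsf4, Tnfrsf9, Irf4, Irf8, Maf and Il21 include 0 in both fits, and those of Wdr43 (0.62), Gnl3 (0.65), Hk2 (0.69) and Rasgrp2 (-0.64) do not.

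Among the other genes named by the study, the interval of Hk2 did not include 0. Hk2, the hexokinase that commits glucose to glycolysis, stood at 34.7, 45.8 and 29.2 CPM in isotype, at 39.5, 33.4 and 51.2 CPM with anti-PD-L1, at 55.4, 37.5 and 34.1 CPM with anti-Lag3 and at 75.1, 71.6 and 85.1 CPM in CB. Only the CB samples were apart from the rest, and the interaction was 0.69 (95% interval 0.09 to 1.28, adjusted p = 0.803). Aldoa, another enzyme of glycolysis, was at 0.08 (-0.17 to 0.33), Hif1a at 0.11 (-0.22 to 0.45) and the NF-kB cofactor Bcl3 at 0.07 (-0.42 to 0.56). Gata3, the factor of type 2 helper T cells, was called lower in CB at -0.95 (adjusted p = 0.000842), with an interaction of -0.17 (-0.65 to 0.30), and Cd4 was at 0.03 (-0.31 to 0.37). Of the 21 glycolysis genes 10 were above 0, with a median of -0.012. Medians were also near 0 for S phase genes (-0.038, 12 of 30 above 0) and G2/M genes (-0.0231, 13 of 30). For heat shock chaperones the median was 0.073 (12 of 21 tested above 0) and 0.182 with the block. Cholesterol synthesis and uptake genes were mostly below 0, with 16 of 20 and a median of -0.17. The median was 0.0428 for proteasome subunits (19 of 31 above 0), 0.082 for NF-kB subunits and inhibitors (10 of 15), 0.134 for TNF superfamily receptors and ligands (12 of 18 tested) and 0.318 for T helper cytokines (8 of 11 tested). With the block the last 2 medians were 0.0331 and 0.046, and without members that have a group at the floor they were 0.0819 and 0.611. It was -0.0688 for negative regulators of TCR signalling (6 of 21 above 0), -0.0354 for calcineurin-NFAT and calcium entry genes (9 of 19 tested) and 0.00358 for early response and feedback genes (13 of 26).

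The genes of the blocked receptors and ligand had wide intervals. Pdcd1, which encodes PD-1, stood at 19.1 to 27.4 CPM in isotype and 26.3 to 28.8 CPM in CB, with an interaction of 0.03 (95% interval -0.72 to 0.77). Lag3 stood at 4.24 to 6.79 CPM in isotype and 5.87 to 11 CPM in CB, with an interaction of 0.61 (-0.99 to 2.2). Cd274, which encodes PD-L1, stood at 17.8, 5.57 and 18.0 CPM in isotype, at 3.37, 2.92 and 8.01 CPM with anti-PD-L1, at 11.9, 9.16 and 5.57 CPM with anti-Lag3 and at 10.2, 12.2 and 4.93 CPM in CB. The groups overlapped, and the interaction of 1.56 (0.13 to 2.99) did not pass adjustment (adjusted p = 0.803). Among 20 checkpoint receptors and ligands 10 were above and 10 below 0. All 9 follicular helper genes that could be tested, of 12, were above 0, with a median of 0.21 and 1 at an unadjusted p under 0.05, the adaptor gene Sh2d1a at 0.69. Its mean was 40.9 CPM in isotype and lower in the other groups, at 24.3 CPM with anti-PD-L1, 27.5 with anti-Lag3 and 26.4 in CB, so CB lay above the multiplied single changes but not above isotype. Among helper lineage and quiescence factors 16 of 24 were above 0, with Rora at 1.04 (SE 0.33, adjusted p = 0.803) the only 1 at an unadjusted p under 0.05, and among cytokine receptor chains 15 of 24, with Il12rb2 at 1.17 (SE 0.51, adjusted p = 0.803). Il12rb2 overlaps the highly expressed Serbp1 on the opposite strand.

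For a few genes every sample of both single antibodies lay on 1 side of isotype and CB. All samples of both single antibodies were above all samples of isotype and CB in 8 genes (0.0528% of those tested), among them Mt1 and Mlxip, a glucose-sensing factor, whose interaction was -1.08 (SE 0.40, adjusted p = 0.803). The reverse held in 16 genes (0.106%). These counts describe the order of the samples and were given no test. Of these Prkar2a, a regulatory subunit of protein kinase A, stood at 55.1, 53.3 and 57.2 CPM in isotype, at 49.3, 45.6 and 48.4 CPM with anti-PD-L1, at 52.1, 35.9 and 41.9 CPM with anti-Lag3 and at 67.4, 70.5 and 63.8 CPM in CB. Its interaction was 0.84 (SE 0.23, adjusted p = 0.752). Per1, a clock gene, was at 1.26 (SE 0.35, adjusted p = 0.752). CB was above all other samples in 355 of the 15138 genes tested and below all in 271. These counts include genes with a group at the floor and were likewise given no test.

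The following 7 genes kept the sign of the departure on the linear scale. In CPM, CB lay below the sum of the single changes by 71.8 CPM for Mt1 (SE 15.1), 44.9 CPM for Mt2 (SE 9.24), 227 CPM for Ms4a4b (SE 62.7), 77.5 CPM for S100a6 (SE 30.9) and 88.8 CPM for Rasgrp2 (SE 34.9), and above it by 54.9 CPM for Ddx18 (SE 9.22) and 134 CPM for Wdr43 (SE 29.8). Besides Ccr6, the linear scale turned the sign of Itga4 (0.191 CPM, SE 16.4) and S1pr1 (2.49 CPM, SE 12.2), whose log2 intervals include 0. In the plot of values by sample number the 3 points of Mt1, Mt2, Ms4a4b, S100a6, Ddx18, Wdr43 and Rasgrp2 were each on 1 side of 0.

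**Figure D5:**
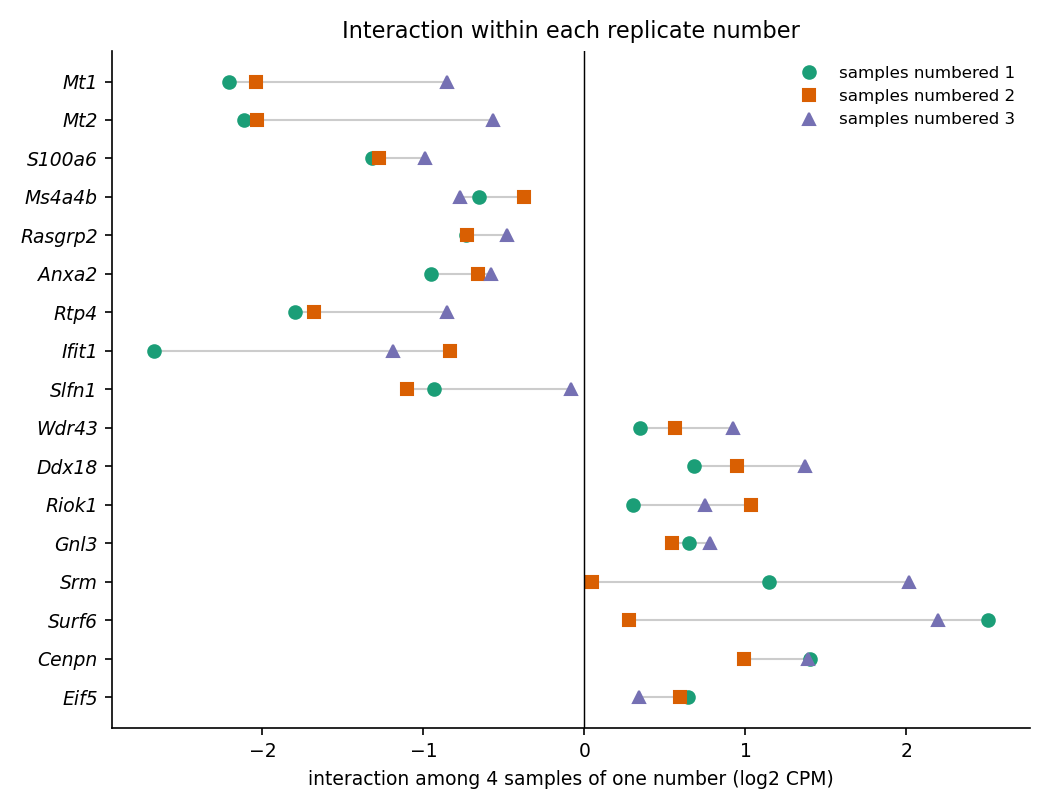
Interaction (log2 CPM, horizontal axis) among the 4 samples of each replicate number, 3 points per gene. The points of Ms4a4b lie between -0.77 and -0.38 those of Ddx18 between 0.68 and 1.37 and those of Mt1 between -2.21 and -0.85, and the points of Srm spread from 0.05 to 2.02.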

How the data were processed

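Spleen responder CD4+ T cells were profiled by 3′ mRNA sequencing without molecular identifiers. Per the labels and methods, the authors trimmed reads with cutadapt 1.18, aligned them to GRCm38 with STAR 2.6.1a and counted them with featureCounts 1.6.4, and the deposited counts are raw reads per gene. The annotation release and the strand setting are not given in the sources used here. A second deposited table holds log2-scale rlog values that the authors made with DESeq2 for 10492 genes, used only as an alternative. Tables from both were matched to samples by column name.

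From the counts, edgeR 4.0.16 (TMM scaling, quasi-likelihood F test, 4 group means, 12 samples, R 4.3.3) gave each contrast over 15138 genes, with Benjamini-Hochberg adjustment and a threshold of 0.05. The 114 spike-in rows (0.719 to 1.29% of reads) were left out. The standard error is the absolute log2 value over the square root of F. Levels are CPM after TMM scaling. A group counts as at the floor when all its samples hold at most 3 reads. Values by sample number use log2 CPM with a prior count of 2. Linear values use mean CPM with the pooled SD.

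Named genes were those the study names, those called, the 10 of smallest p in each direction with a mean count of at least 30, and up to 4 of smallest p in each of 24 lists. The receptor and ligand genes Pdcd1, Lag3 and Cd274, the remaining members of lists with an unadjusted p under 0.05, and Mlxip and Per1 were added after values were seen. Some genes that meet these rules are not reported here. The members and lists were chosen with earlier results of these data known. GENCODE names for GRCm38 were found for 52073 of 56691 identifiers.

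Alternatives were DESeq2 1.42.0 (also against an absolute log2 value of 0.2), limma 3.58.1 (voom, and on rlog values), robust edgeR, DESeq2 size factors, other filters, the replicate number as a block, and each sample or number left out. The block with 1 sample left out, the block in limma-voom and the fit without libraries with Y-linked reads were added after seeing the data. DESeq2 with the block used a local dispersion trend, since the parametric trend did not converge in every run. The scripts were tested on simulated data. The p-values measure the spread between 3 mice per group.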

Additional observations from a re-analysis of the deposited data

Results flagged for a closer look

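In 4 genes the effect of 1 antibody differed by whether the other was present, by the test of that difference in the edgeR fit with the replicate block. The interaction was -1.65 for Mt1, -1.52 for Mt2, -0.602 for Ms4a4b and -1.2 for S100a6 on the log2 scale. None of the 4 passed in the same fit without the block, where the smallest adjusted p was that of Mt1 at 0.14. DESeq2 without the block called Mt1 and Ms4a4b, and with the block it called all 4. In limma-voom with the block 1 gene passed, which was Ms4a4b.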

How the results depend on the processing

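The interaction called 0 genes in either direction in edgeR without the block (898 at an unadjusted p under 0.05), with limma-voom, with DESeq2 size factors, with filterByExpr and with a mean count of at least 30. Genes called above and below 0 were 6 and 12 in DESeq2, 3 and 10 in DESeq2 against an absolute log2 value of 0.2, 0 and 2 in robust edgeR, 3 and 7 with no filter beyond 1 read, 0 and 1 on rlog values, 2 and 3 without number 2, 0 and 2 without number 3, and 1 and 0 without the 5 libraries with Y-linked reads, where the gene was mt-Rnr2. The genes called with no filter beyond 1 read included Xist. Leaving out 1 sample gave 0 above and 0 to 2 below, the 2 being Mt1 and Mt2 without isotype sample 3. The count at an unadjusted p under 0.05 moved to 413 in DESeq2 against 0.2, 515 on rlog values, 451 with a mean count of at least 30 and 594 without number 3.

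The replicate block called 0 above and 4 below 0 in edgeR and 1 below in limma-voom. In DESeq2 it called 131 above and 122 below, of 1365 at an unadjusted p under 0.05. Of those 253 genes, 196 had a group at the floor and 77 had an unadjusted p under 0.05 in edgeR with the block. Those without such a group included Mt1, Mt2, Ms4a4b and S100a6. They also included Ddx18 (DESeq2 adjusted p = 0.000121), Rasgrp2 (0.000131), Eif5 (0.000172) and Wdr43 (0.000325). Cenpn, Kctd5, Surf6, Fyttd1, Riok1, Anxa2, Ifit1 and Rtp4 were among them too. Apart from Mt1, Mt2, Ms4a4b and S100a6, edgeR with the block called none of these. Leaving out 1 sample with the block gave 0 to 6 above and 2 to 5 below. These counts include sex-linked genes. Uty, Ddx3y and Eif2s3y were called without isotype sample 1, and Ddx3y, Eif2s3y and Xist without isotype sample 3. Ddx3y or Eif2s3y was also called without anti-PD-L1 sample 1, anti-Lag3 sample 1 or 3, or CB sample 2. The libraries with Y-linked reads were not spread evenly over the groups, and their part in these calls was not tested. Ms4a4b was lost without anti-PD-L1 sample 1 or 3, anti-Lag3 sample 3 or CB sample 3, and Mt2 without isotype sample 2, anti-PD-L1 sample 1 or 2, anti-Lag3 sample 1, or CB sample 1 or 3. The study sorted the spleens in batches of 4, and the sources used here do not tie the sample numbers to these batches, so whether the numbers mark them was not tested beyond the following correlations. Deviations of same-numbered samples correlated at 0.014 to 0.125 for number 1, -0.0612 to 0.0894 for number 2 and 0.0431 to 0.0861 for number 3, against -0.134 to 0.0741 across numbers. By the planned rule the numbers pair the samples only if every same-number pair is over 0.1. That held for 2 of 6 pairs of number 1 and for 0 of 6 of number 2 and of number 3, so the rule was not met. Even so, 10 of 12 samples correlated best with a sample of their own number. All samples numbered 1 held Y-linked reads, so for that number a batch and these reads cannot be told apart.

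CB against isotype, with 649 genes called, moved to 235 in DESeq2 against 0.2 and 1821 in DESeq2 with the block. Anti-PD-L1 against isotype, with 5 called, moved to 62 in DESeq2, 13 against 0.2, 2 in limma-voom, 9 in robust edgeR, 23 with the block and 708 in DESeq2 with the block. Anti-Lag3 against isotype, with 0 called, moved to 12, 4, 1 in limma-voom, 9 with the block and 438 in DESeq2 with the block. The causes were not tested.

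Among named genes, signs turned only where the 95% interval includes 0. Without the libraries with Y-linked reads these were Aldoa at -0.048, Ccr6 at 0.26, Irf4 at -0.029, Itga4 at 0.28, Lag3 at -0.11, Pdcd1 at -0.35 and Tnfrsf9 at -0.021. On the linear scale they were Ccr6 at 8.04, Itga4 at 0.191 and S1pr1 at 2.49 CPM, and on rlog values Ccr6 at 0.072. Without number 1 they were Itga4 at 0.28 and Pdcd1 at -0.070, without number 2 Hif1a at -0.0016, Pdcd1 at -0.15 and Tnfrsf4 at -0.19, and without number 3 Il21 at -0.46, S1pr1 at 0.12 and Tnfrsf4 at -0.059. Leaving out 1 sample gave -0.079 to 0.23 for Bcl3, -0.68 to 0.56 for Il21, -0.26 to 0.037 for Itga4, -0.0054 to 0.28 for Maf, -0.22 to 0.22 for Pdcd1 and -0.092 to 0.15 for Tnfrsf4. Over all alternatives 35 gene values reversed, 52 newly passed the threshold and 1229 kept direction and side of it. Depth limits what can be seen, since between mean counts of 30 and 100 the typical 95% interval reached 6.92-fold in either direction.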
